A study of Homo sapiens with 4 samples.

Results

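Narrow 3' UTR peaks are stretches of messenger RNA, each under 600 bp wide and annotated to a 3' untranslated region (UTR), that held more RNA fragments after immunoprecipitation of YTHDF2 than the caller's background. They were chosen by width and annotation, both measured values of the same list, from 14858 deposited peaks on the condition that they lie on chromosomes 1 to 22 or X. There were 3245 of them, or 80.3% of the 4042 3' UTR peaks on these chromosomes and 21.8% of the whole list. The study profiled HCCLM3, a human liver cancer line of metastatic origin, with an unmodified (WT) genotype in all groups. The labels gave 2 YTHDF2 RIP libraries and 2 input libraries of RNA taken before the pulldown. No control pulldown was among them, and the labels do not state if replicates are separate cultures. The study asked which transcripts YTHDF2 holds, in work on condensates that YTHDF2 forms with CRTC2, a coactivator of CREB.

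The 3' UTR lies between the stop codon and the poly(A) tail and carries most of the signals that set how long an mRNA lives and how well it is translated. N6-methyladenosine (m6A) is frequent around stop codons and in 3' UTRs. YTHDF2 binds m6A through its YTH domain and brings the CCR4-NOT deadenylase to the RNA, which shortens the tail and starts decay.

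All 4 libraries stand behind 1 list with no value per library, so no value here has a replicate spread. The fold enrichment (RIP over background at the peak's summit) and the q (the caller's adjusted p) are the authors' values. RIP fragments and background at a summit were recovered from the fold and the p. Intervals given with folds are 95% exact Poisson intervals of the fragment number at a fixed background, and those given with shares are 95% exact Clopper-Pearson intervals. They cover counting error only, as PCR reads carrying no molecular identifier need not stand for separate molecules. Width and annotation come from the same RIP against input contrast as the folds, so every comparison below is a description with no test.

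Of 10 hepatocyte markers fixed for a check of the label, APOB and HNF4A had a peak in the list. Each was a narrow 3' UTR peak with a q above 0.01, with folds of 1.92 for APOB and 1.45 for HNF4A. Of markers of other cell types, 2 of 4 blood (CD68 and HBB), 1 of 2 endothelial (PECAM1) and 1 of 3 stromal markers (LUM) had a peak in the list, none of them a narrow 3' UTR peak. Peaks were thus listed for 2 of 10 hepatocyte markers and for 4 of the markers of other cell types, and their part in the results was not tested. A peak list gives no level for a gene without a peak.

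The narrow peaks ranged from weak to strong. Their folds ran from 1.17 to 8.48 with a median of 2.22 and quartiles of 1.76 and 2.74. Their −log10 q had a median of 1.99 and a lower quartile of 0.319, so many had little support from the caller. A q of 0.01 or less, called passing below, was reached by 1618 of 3245 peaks (49.9%, 48.1 to 51.6), against 37.3% of all peaks in the list. The share that passed was thus above that of the list, of which the narrow peaks are themselves a part. The list also held more thin peaks. The median number of RIP fragments was 38 for narrow 3' UTR peaks and 12 for all peaks, and 7.09% against 34.2% rested on 4 or fewer fragments. A fold of 4 or more was found for 161 narrow peaks (4.96%), and 1275 (39.3%) lay under 2-fold.

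**Figure D1:**
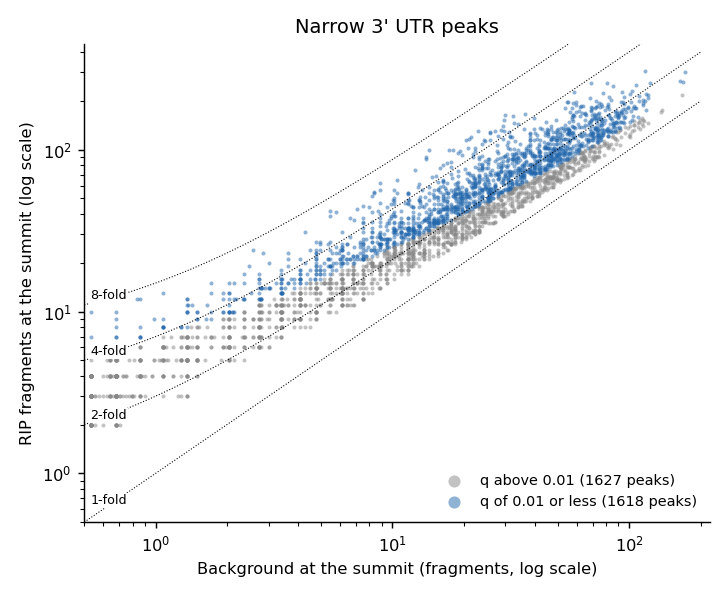
RIP fragments at the summit (vertical, log scale) against the background at the summit (horizontal, log scale) for the 3245 narrow 3' UTR peaks. Each point is 1 peak, the dotted lines mark folds of 1, 2, 4 and 8, and blue points are the 1618 that passed. At a background near 1 fragment a peak passes only at a fold around 4 and above, while at high backgrounds peaks under 2-fold pass.

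The limit of 600 bp cuts through a continuous range of widths. The shortest width, 315 bp, was shared by 338 peaks, and the median was 374 bp. Those 338 peaks rested on a median of 7 fragments and 20.4% of them passed. From 316 to 349 bp the median was 43 fragments and 61.2% passed. Median folds went from 2.36 at 316 to 349 bp to 2.08 at 400 to 449 bp and 1.83 at 550 to 599 bp. Just inside the limit, at 599 bp, lay peaks of TMEM106C (1.67-fold), SH2B3 (1.69-fold) and PTRH2 (3.05-fold). Just outside, at 600 bp, lay peaks of RAB3B (1.46-fold), TXNL1 (2.58-fold over 6 fragments) and NXT1 (1.70-fold). Nothing in these values sets the 2 sides of the limit apart.

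**Figure D2:**
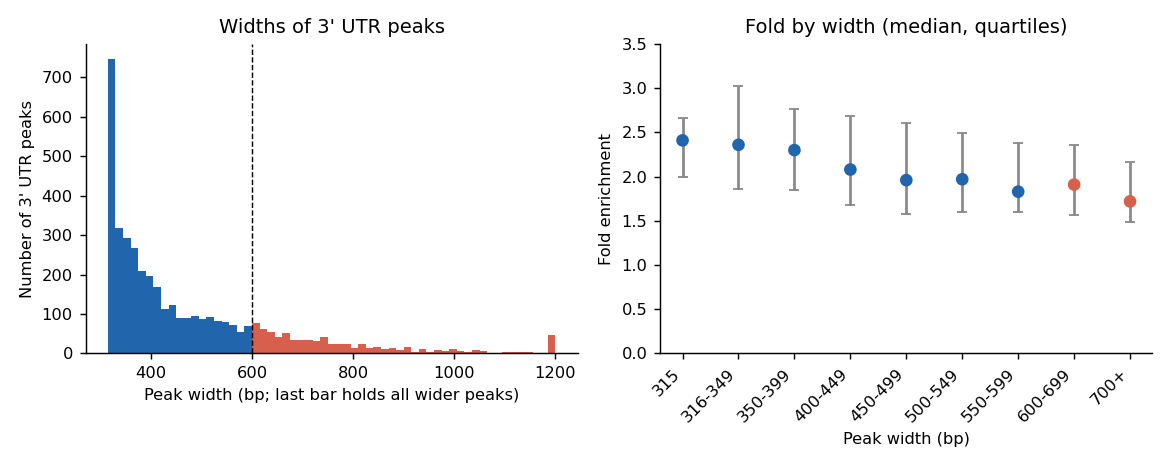
Left, number of 3' UTR peaks on chromosomes 1 to 22 and X by width in bins of 15 bp, narrow peaks in blue and those of 600 bp or more in red. Right, median fold enrichment by width group with bars from the lower to the upper quartile, from 2.41 at 315 bp to 1.72 at 700 bp and above.

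Beside the 797 broad 3' UTR peaks of 600 bp or more, the narrow ones had higher folds over fewer fragments. Broad peaks had a median fold of 1.80 over 78 fragments, a median log2 difference of 0.30 (narrow minus broad), and 56.3% of them passed. The comparison depended on the number of fragments. Among peaks of 5 to 19 fragments the medians were 2.58 for narrow and 2.75 for broad peaks. Among peaks of 60 to 119 fragments they were 1.92 and 1.69, and at 120 or more they were 2.01 and 1.65. Beside 91 peaks in the last coding exon, with a median fold of 1.67, the log2 difference was 0.41.

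The summits of narrow peaks gathered at the ends of genes. The strand needed to place the 3' end was known for 3059 narrow peaks in protein-coding genes, and the end is the outermost one in the RefSeq table. Of these, 745 (24.4%, 22.8 to 25.9) had their summit within 200 bp of the gene's 3' end, against 51 of 763 broad peaks (6.68%, 5.02 to 8.70). These shares compare groups split by width, and width itself differed with the distance to the end. The median width of narrow peaks was 332 bp at 0 to 50 bp from the end and 436 bp at 301 to 500 bp. It was 370 to 397 bp in the groups beyond. What part the width limit has in the difference between the shares was not tested. The densest stretches were 125 to 149 bp before the end with 202 summits and 100 to 124 bp with 178. No stretch of 25 bp between 500 and 1499 bp from the end held more than 25 summits. In 722 of the 745 the edge of the peak reached or passed the end of the gene. Each peak was at least 315 bp wide, so a summit this near the end makes that outcome likely in advance.

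Folds were highest next to the end and lower farther away. The median fold was 3.72 for 66 peaks with a summit 0 to 50 bp from the end, 2.98 at 51 to 100 bp, 2.61 at 101 to 150 bp and 2.53 at 151 to 200 bp. It was 2.14 at 201 to 300 bp and 1.85 at 301 to 500 bp, the lowest of the 11 distance groups, and 1.97 to 2.38 in the groups beyond. Within 200 bp of the end the median fold was 2.70 (quartiles 2.32 and 3.29), and 555 of 745 peaks passed (74.5%, 71.2 to 77.6). Farther away the median was 2.01 (1.66 and 2.55), and 980 of 2314 passed (42.4%, 40.3 to 44.4). Of the 151 peaks that passed with a fold of 4 or more, 89 (58.9%) lay within 200 bp of the end.

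The 2 parts of the fold did not move alike. The median number of RIP fragments was 40 within 200 bp of the end and 38 farther away, while the median background was 13.9 against 18.4. On the log2 scale the medians, near minus far, differed by 0.07 for fragments and by -0.40 for background. What part the lower background has in the higher folds was not tested. Within groups of like fragment number the fold restates the background, since it is computed from these 2 values. At 2 to 4 fragments both median folds were 2.61. At 5 to 19 fragments they were 3.02 near and 2.42 far, with backgrounds of 2.72 and 3.85. At 60 to 119 fragments they were 2.59 and 1.77, with backgrounds of 34.0 and 46.2. The broad peaks, which the width limit left out, had medians of 3.03 for 51 near peaks and 1.76 for 712 far ones.

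**Figure D3:**
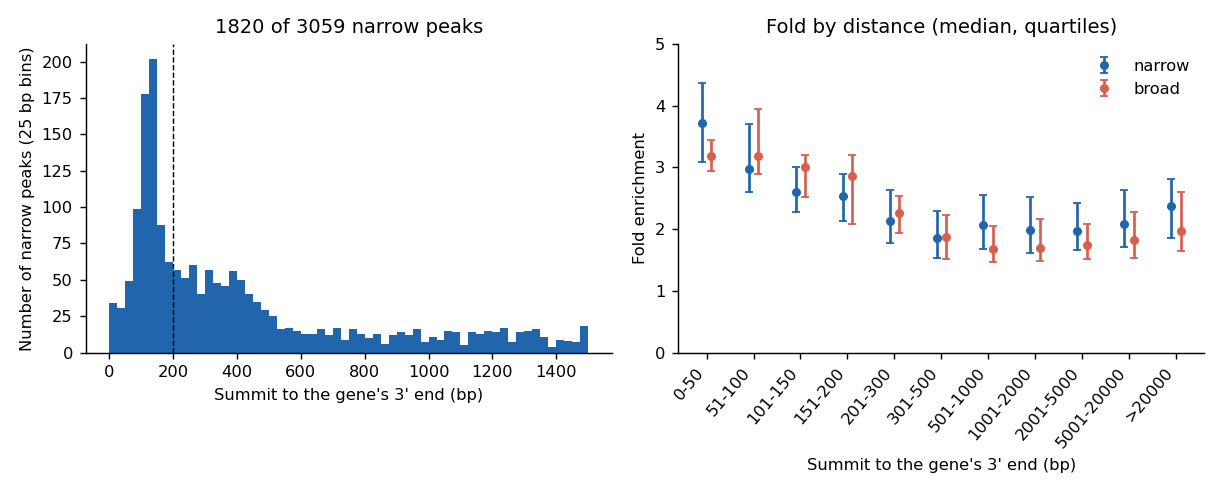
Left, number of narrow 3' UTR peaks by distance in bp from the summit to the 3' end of the gene, with a dashed line at 200 bp. Right, fold enrichment by distance for narrow (blue) and broad (red) peaks as medians with bars from the lower to the upper quartile. Summits pile up from 100 to 149 bp before the end, and the median fold of narrow peaks is 3.72 at 0 to 50 bp and 1.85 at 301 to 500 bp.

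The same order was found within single genes. In 71 genes a narrow peak within 200 bp of the end stood beside another that was farther away, and the best of each kind was compared. The near peak had the higher fold in 65 of 71, with medians of 2.63 near and 1.80 far. Some of the 65 rested on few fragments, such as FEM1A with 3 near and 46 far. The near peak also had the lower background in 63 and the fewer RIP fragments in 52 of the 71, with median backgrounds of 19.0 near and 46.2 far. The genes of this paragraph were chosen after their values were seen. STK35, a protein kinase, had 3.91-fold at 183 bp (59 fragments) and 1.46-fold at 31448 bp (76 fragments). TMEM123, a membrane protein, had 3.46-fold at 88 bp over a background of 27.6 and 1.34-fold at 1184 bp over a background of 114. PRKCA, the protein kinase C alpha, had 4 narrow peaks, of 3.08-fold at 132 bp and of 1.86-, 1.45- and 1.52-fold at 2531, 4207 and 5939 bp. RAN, the GTPase of nuclear transport, went the other way, with 2.06-fold at 116 bp and 2.43-fold at 1479 bp. SNX1, a sorting nexin of the retromer pathway, had 3.38-fold over 6 fragments near the end and 4.86-fold over 27 farther away.

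**Figure D4:**
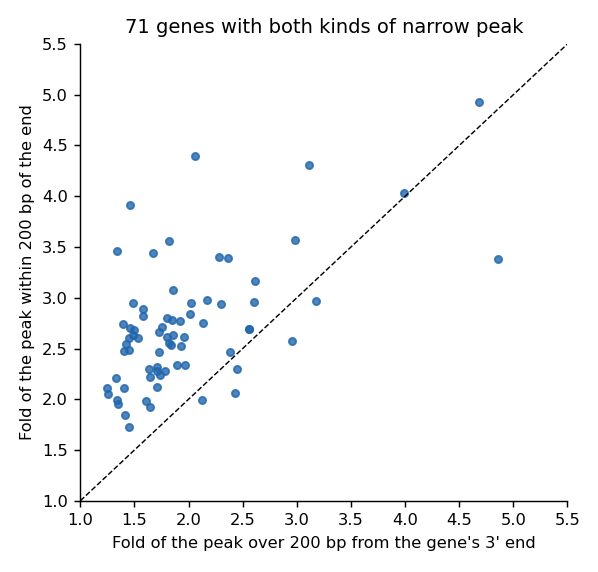
Fold enrichment of the best narrow peak within 200 bp of the gene's 3' end (vertical) against that of the best narrow peak farther away (horizontal) in the 71 genes that had both. Each point is 1 gene and the dashed line marks equal folds, with 65 genes above it.

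Summits fell into 2852 genes, and 1517 of them had a narrow peak that passed (53.2%, the share against which the gene lists below are read). Most genes (2525) had 1 narrow peak, 291 had 2, 26 had 3, 8 had 4 and 2 had 5. Both a narrow and a broad peak were found in 157 genes, which is 5.50% of the genes with a narrow peak and 21.1% of the 744 with a broad one.

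The highest folds among passing peaks of protein-coding genes mostly rested on few fragments. SMDT1, a regulator of the mitochondrial calcium uniporter, led with 8.48-fold (4.70 to 14.3) over 12 fragments (chromosome 22, 42083131 to 42083547, hg38). DHX36, a helicase that unwinds G-quadruplexes, had 7.17-fold over 10 fragments. FIBCD1 (7.08-fold), the tetrahydrobiopterin enzyme GCH1 (7.0-fold) and the Mediator subunit MED30 (6.76-fold) rested on 12 or 13. FAM229B had 6.55-fold over 10 fragments. Their intervals are wide, and each reaches below 5-fold. The backgrounds were also very low, at 0.533 for SMDT1 and DHX36, the lowest value in the whole list. For the others they were 0.68 (FAM229B) to 1.07 (MED30).

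A smaller group joined a high fold to a firm count. YWHAE, the epsilon form of the 14-3-3 adaptors, had 6.52-fold (5.31 to 7.92) over 99 fragments (chromosome 17, 1344336 to 1344796). NDUFB3, a subunit of complex I, had 6.40-fold (4.93 to 8.18) over 62 fragments, with its summit 12 bp from the gene's end. SDHB, the iron-sulfur subunit of complex II, had 6.68-fold (4.86 to 8.97) over 42 fragments at 24 bp. ECI2, an isomerase of fatty acid oxidation, had 7.0-fold (4.59 to 10.3) over 24 fragments at 60 bp. The intervals of these peaks overlap, so their order is not settled by the counts.

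By −log10 q, the 10 leading narrow peaks had 130 to 258 RIP fragments each. PPIA, the cyclophilin A prolyl isomerase, had a −log10 q of 61.6 and a fold of 3.72 (3.28 to 4.20) over 258 fragments (chromosome 7, 44801463 to 44801829). HINT1, a nucleotide hydrolase, had 5.34-fold (4.56 to 6.21) over 164 fragments. The membrane-binding annexin ANXA2 had 3.83-fold over 227 fragments, the calcium-binding S100A11 3.19-fold over 258, and the ribosomal protein RPS6 4.46-fold over 166. Of the Arp2/3 complex, which branches actin filaments, ARPC3 had 4.86-fold at 82 bp from the end and ARPC1A 3.59-fold at 65 bp. LDHB, a lactate dehydrogenase subunit, had 5.04-fold at 59 bp, and DYNLRB1, a dynein light chain, 3.55-fold at 67 bp. EIF3CL had 5.48-fold over 130 fragments, but it is a near-identical copy of EIF3C and reads may be shared. The lowest lower bound among the 10 was 2.81, that of S100A11.

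Where the background was highest, low folds passed. NHERF2, a scaffold of membrane transporters, had 1.75-fold (1.56 to 1.96) with 301 fragments over a background of 171. TUBA1B had 1.56-fold and TUBA1C 2.09-fold; both encode alpha-tubulins with near-identical coding sequence. The 14-3-3 protein YWHAG had 1.62-fold and the microsomal glutathione transferase MGST1 1.80-fold. None of these 5 summits was within 200 bp of the gene's outermost annotated end. The distances ran from 285 bp for TUBA1B to 229222 bp for MGST1. A transcript that ends earlier counts as far, so a summit may still lie near such an end.

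HDAC9 and HIPK2 had 5 narrow peaks each, and 8 genes tied at 4, of which the first 3 by name are described. HIPK2, a nuclear kinase, had 5 peaks between 5582 and 10887 bp from the gene's end with folds of 1.24 to 1.65 over 112 to 146 fragments, and 4 of them passed. Of the 5 of HDAC9, a class IIa histone deacetylase, 4 rested on 3 or 4 fragments and did not pass, while 1 of 3.15-fold over 19 fragments passed. The ETS factor ELK4 had 4 peaks of 1.63- to 2.34-fold, 2 of which passed, and the 4 peaks of CASP2, an initiator caspase, were 1.46- to 2.12-fold and did not pass. C2orf49 had 4 peaks of 1.52- to 2.52-fold, 2 of which passed, and 2 of its summits lay in a second protein-coding gene as well.

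The gene lists were read by each gene's best narrow peak, that of highest fold, and the genes named are among the highest of those that passed unless said otherwise. Over all 2852 genes the median best fold was 2.29, and 27.3% of best peaks with a known strand had their summit within 200 bp of the gene's end. The list holds only peaks higher in RIP, so no gene could move the other way. Genes that passed are counted out of the listed genes with a narrow peak, not out of all genes of the list. No list was tested, and nothing particular to a list is drawn from its counts.

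**Figure D5:**
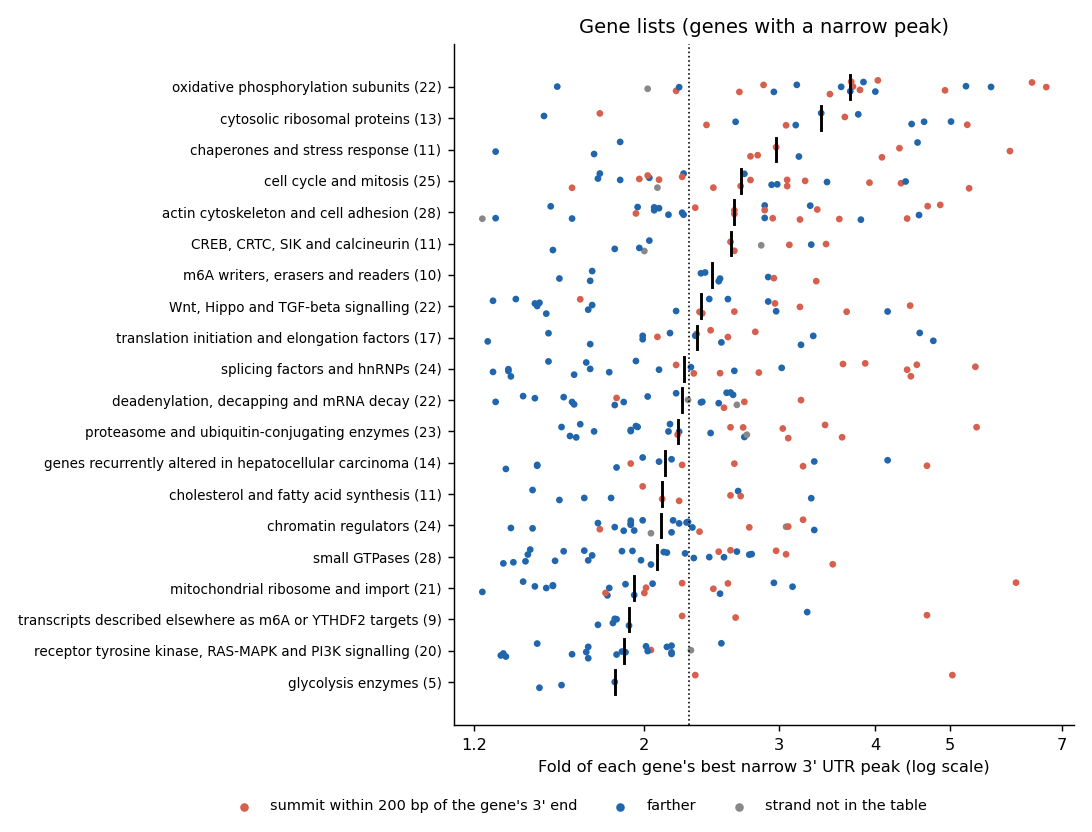
Fold of the best narrow 3' UTR peak of each gene (log scale) in the gene lists with at least 5 such genes, with the number of genes in brackets. Black bars are list medians, the dotted line is the median of all genes (2.29), and red points have their summit within 200 bp of the gene's 3' end. The list medians run from 1.83 for glycolysis enzymes to 3.71 for oxidative phosphorylation subunits, and the near median is above the far one in every list drawn except ribosomal proteins (3.06 against 3.60).

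Nuclear-encoded subunits of oxidative phosphorylation, the respiratory chain and ATP synthase of mitochondria, had the highest median. Of 72 listed genes 22 had a narrow peak and 20 had one that passed, with a median best fold of 3.71. The best summit lay within 200 bp of the end in 11 of 21. After SDHB and NDUFB3, COX6C of complex IV had 5.66-fold (4.47 to 7.08) over 75 fragments and NDUFA6 of complex I had 5.25-fold (3.31 to 7.98) over 20. In this list the median was 3.74 near the end and 3.66 farther away. Distances run to the outermost annotated end, as with 9507 bp for COX6C, so a transcript that ends earlier counts as far. The 2 that did not pass were SDHC (2.02-fold) and NDUFS1 (1.54-fold).

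Of 79 cytosolic ribosomal proteins 13 had a narrow 3' UTR peak and 12 passed, with a median of 3.40. RPL27 had 5.27-fold (4.29 to 6.40) at 51 bp from the end, RPS14 5.02-fold, RPL32 4.63-fold and RPS6 4.46-fold. The last 3 had summits 617 to 1431 bp from the outermost end of the gene. RPL15 (1.48-fold) did not pass. The mitochondrial ribosome and import machinery had a lower median of 1.94, with 16 of 21 genes passing. It was led by MRPL33 (6.10-fold over 90 fragments at 41 bp), and the next were MRPL37 (3.12-fold), MRPL42 (2.95-fold) and the import receptor TOMM20 (2.57-fold). Translation factors had 14 of 17 genes passing and a median of 2.34, led by EIF3H (4.76-fold over 127 fragments), EIF2B3 (4.57-fold over 16), EIF3G (3.32-fold) and EIF5B (3.20-fold). The annotated end of P2RY11, on the other strand, lay 118 bp from the EIF3G summit, nearer than EIF3G's own end at 476 bp.

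Chaperones and stress response genes had 10 of 11 genes passing and a median of 2.97. The subunits of the cytosolic chaperonin that folds actin and tubulin stood first, with CCT2 at 5.99-fold (4.54 to 7.76), CCT4 at 4.54-fold and CCT8 at 4.30-fold. PPP1R15A, which directs a phosphatase to eIF2-alpha, followed with 4.08-fold over 129 fragments. For proteasome subunits and ubiquitin-conjugating enzymes, 20 of 23 genes passed and the median was 2.21. PSMB1 of the core particle had 5.42-fold (4.48 to 6.50) at 7 bp from the gene's end, UBE2C of the anaphase-promoting pathway 3.62-fold, PSMC3 3.44-fold and PSMD6 3.08-fold, all with summits within 200 bp.

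Of 72 listed splicing factors and hnRNPs 24 had a narrow peak and 16 passed. The median best fold was 3.75 for 10 genes with the summit within 200 bp of the end and 1.69 for 14 others, with overlapping ranges. SNRPC of the U1 snRNP had 5.40-fold (4.48 to 6.45) over 120 fragments, the core Sm proteins SNRPD2 and SNRPG 4.53- and 4.45-fold, and HNRNPL 4.40-fold, all 4 near the end. The annotated end of PCYOX1, on the other strand, lay within 500 bp of the SNRPG summit. The 4 highest passing actin and adhesion genes were ARPC3, ANXA1 (4.68-fold at 40 bp), ANXA11 (4.56-fold) and ARPC2 (4.40-fold at 119 bp). In that list 24 of 28 genes passed, with a median of 2.62.

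Among cell cycle genes 17 of 25 passed and the median was 2.67. ANAPC5, of the anaphase-promoting complex, had 5.30-fold (4.39 to 6.35) over 116 fragments, the replicative helicase subunit MCM5 4.38-fold over 48, the mitotic cyclin CCNB2 4.32-fold over 18 and the pocket protein RBL1 3.93-fold over 29. Chromatin regulators had 17 of 24 passing and a median of 2.10, led by ARID1A (3.33-fold) and SMARCA4 (3.22-fold) of the SWI/SNF remodellers and by the methyltransferases SETD1B (3.08-fold) and KMT2B (2.74-fold). The summit of the KMT2B peak lay 16 bp from the annotated end of IGFLR1 on the other strand, nearer than KMT2B's own end at 93 bp. Small GTPases had 16 of 28 passing and a median of 2.08, led by RAP2C (3.52-fold), RRAS2 (3.06-fold), RRAS (2.97-fold) and RHEB, the activator of mTORC1 (2.76-fold).

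For the genes of the YTHDF2 pathway itself, the values over all genes to read beside were 53.2% passing and a median best fold of 2.29. Any difference from these was not tested. Of 26 m6A writers, erasers and readers 10 had a narrow peak and 6 passed, with a median of 2.45. YTHDF1, the paralog of YTHDF2, had 3.35-fold (2.67 to 4.15) over 82 fragments at 104 bp from the end. WTAP, which holds the methyltransferase in nuclear speckles, had 2.95-fold, the demethylase FTO 2.90-fold and METTL3, the catalytic subunit, 2.51-fold. The summits of WTAP and METTL3 each lay in 2 protein-coding genes. The end of TOX4, on the other strand, lay 358 bp from the METTL3 summit, nearer than METTL3's own end at 674 bp. For mRNA decay, 22 of 66 genes had a narrow peak and 12 passed, with a median of 2.24. Among those that passed, ZFP36L1, which binds AU-rich elements, had 3.20-fold over 62 fragments, CNOT8 of CCR4-NOT 2.70-fold and the microRNA effector TNRC6A 2.59-fold.

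For growth factor signalling through receptor kinases, RAS and PI3K, 9 of 20 genes passed, with a median of 1.88, and 1 of 19 best summits lay within 200 bp of the end. SPRY4, a feedback inhibitor of this pathway, led those that passed with 2.52-fold, and PIK3CB, ARAF and IRS1 had 2.17-fold each. Of the Wnt, Hippo and TGF-beta list 11 of 22 passed. SMAD4 (4.44-fold over 12 fragments, 2.46 to 7.50) and ACVR2A (4.15-fold over 6, 1.90 to 8.34) rested on few fragments, while GSK3A had 3.67-fold (3.05 to 4.39) over 120, and SMAD5 had 3.19-fold over 20. In the CREB, CRTC, SIK and calcineurin list 9 of 11 passed with a median of 2.59, led by SIK3 (3.45-fold), CREB3L1 (3.30-fold), RCAN1 (3.09-fold) and PPP3CA (2.84-fold). CRTC2 and YTHDF2 had no narrow 3' UTR peak.

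Of 28 transcripts described elsewhere as m6A or YTHDF2 targets 9 had a narrow peak and 5 passed, with a median of 1.91. Among those that passed, the cyclin CCND1 had 2.24-fold over 163 fragments, the acetyltransferase CREBBP 1.83-fold and the kinase MAP2K4 1.82-fold. Among genes recurrently altered in hepatocellular carcinoma 8 of 14 passed, with a median of 2.13, and ACVR2A, ARID1A and SMARCA4 were among them. In cholesterol and fatty acid synthesis 8 of 11 passed, with DHCR7 at 3.30-fold, the desaturase SCD at 2.67-fold, MVK at 2.65-fold and SQLE at 2.59-fold. Of glycolysis enzymes 4 of 5 passed, with LDHB far above ENO1 (2.33-fold), ALDOA (1.83-fold) and GPI (1.46-fold). The ALDOA summit lay in 2 protein-coding genes. It was 261 bp from ALDOA's end and 255 bp from that of LOC112694756 on the same strand. Of 30 hepatocyte secreted proteins only APOB had a narrow 3' UTR peak, and none of 20 non-parenchymal and blood cell markers had one. Any peak in the list was found for 2 of the 30 and for 5 of the 20.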

How the data were processed

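The authors aligned reads with HISAT2 and called peaks with MACS2 on hg38, per the submitters' processing notes; not given in the sources used here: versions, options and how libraries were combined. Per the file headers, each row has the fold (a ratio of RIP to background), −log10 p, −log10 q and a score, which was not used. Depth per library is unknown. Fragments and background at each summit were solved from fold = (k + 1) / (background + 1) and the Poisson p, within 0.000189 of every −log10 p, and the solution was tested on simulated data.

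Each peak was given to the RefSeq gene (GRCh38.p14) containing the summit, with preference for protein-coding genes, next for the gene named in the list, and last for the shortest. Of 3245 peaks, 18 had none. Several genes contained the summit in 407, and without strand in the list these cannot be told apart. The deposited nearest-start gene was the containing gene for 47.1%. Gene strand came from a RefSeq promoter table, then from the deposited strand.

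Named genes are, among passing peaks, the 10 highest by fold, the 10 by −log10 q, the 5 with the highest background and 4 per list, plus the 5 genes with the most peaks (ties by name) and 3 peaks on each side of the width limit. Some genes that this rule names are not reported here. Members, lists and the 200 bp limit were chosen with earlier results of these data known or after seeing them. Python 3.11.15, pandas 2.3.3 and scipy 1.17.1 were used.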

Additional observations from a re-analysis of the deposited data

How the results depend on the processing

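No paired analysis was possible because the list holds no value per library; for the same reason no replicate could be left out. The share of narrow peaks that passed was 58.4% at a q of 0.05 or less. The median fold was 2.49 among passing peaks, 2.28 at a width limit of 500 bp and 2.03 for those of at least 20 fragments. The log2 difference from broad peaks was 0.23 with 20 or more fragments and 0.20 for summits over 200 bp from the gene's end. That from last coding exon peaks was 0.58 among passing peaks and 0.27 over 200 bp from the end. The difference between near and far summits (0.43) was 0.29 among passing peaks, 0.51 with 20 or more fragments, 0.59 at a limit of 100 bp and 0.38 at 300 bp. Genes with 2 or more narrow peaks numbered 327, and 83 with passing peaks only, where fewer peaks enter. The alternatives on gene position and those over 200 bp were chosen after seeing the data. None of these alternatives reversed a direction, but among peaks of 5 to 19 fragments the narrow median (2.58) was below the broad one (2.75). Gene ends are outermost annotated ends, so a transcript that ends earlier counts as far.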

Other observations

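The near peak had the lower fold in 6 of 71 genes with both a near and a far narrow peak, and in C10orf88, SNX1 and ZNF431 it rested on 3 to 6 fragments. In the other 3, CASP2 (1.99 against 2.12), MARK2 (2.30 against 2.45) and RAN (2.06 against 2.43), it rested on 28 to 95. Near peaks of 3 fragments were also found where the near fold was the higher, as in FEM1A, ARHGAP23 and ARMC9. LPP, an adhesion protein named after its values were seen, had 4 narrow peaks with folds of 2.06, 1.65, 1.47 and 1.31 at 11955, 6181, 4005 and 489 bp from the gene's end.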
